A study of Mus musculus with 22 samples.

Results

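Gabrg1, Gabra2, Gabra4 and Gabrb1 are neighbouring genes on mouse chromosome 5 that encode the gamma1, alpha2, alpha4 and beta1 subunits of the GABA-A receptor. They were examined for occupancy of E2F3a, an E2F family transcription factor, in the nucleus accumbens (NAc) of mice given cocaine or saline. The genes were chosen by name with earlier results of these data in view. All peaks overlapping a gene or within 1 kb of it, and all differential sites that the authors assigned to it, were taken. This gave 4 of 21887 protein-coding genes, 1 of 3467 cocaine peaks, 0 of 725 saline peaks and 2 of 956 listed differential sites.

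GABA-A receptors are chloride channels opened by GABA, the main inhibitory transmitter of the brain and the transmitter of the medium spiny neurons that make up most of the NAc. Each channel is assembled from several subunits, typically alpha, beta and gamma or delta. The alpha and beta subunits form the GABA site, and a gamma subunit beside certain alpha subunits forms the benzodiazepine site. Alpha2 is typical of synaptic receptors in the NAc, and alpha4 is often found with delta in receptors outside synapses. E2F3a is best known as an activator of cell cycle genes, and it binds DNA together with a DP partner.

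Wildtype C57BL/6J mice of both sexes received saline or cocaine at 20 mg/kg by intraperitoneal injection on 7 days, and nuclei were taken from bilateral 12-gauge punches of frozen NAc. Occupancy was measured by CUT&RUN, in which an antibody on chromatin directs a nuclease to release the bound DNA. The labels give 7 cocaine libraries (2 female, 5 male) and 4 saline libraries (2 female, 2 male) with the E2F3a antibody, and the control immunoglobulin G libraries were not analysed here. Peaks were deposited as 1 list per treatment with both sexes pooled, so they have no replicates. The differential table gives normalized counts for 10 unnamed libraries, 6 after cocaine and 4 after saline. They are numbered here as the table lists them (cocaine 1 to 6, saline 1 to 4), and their sex is not known. Occupancy gives no marker levels, so the tissue could not be checked, and in bulk nuclei less signal per cell and fewer occupied cells cannot be told apart.

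The genes spanned 1398.5 kb of the mm10 build. In order they were Gabrg1 (chromosome 5, 70751047 to 70842617, minus strand), Gabra2 (70958392 to 71095849, minus strand), Gabra4 (71569734 to 71658308, minus strand) and Gabrb1 (71657921 to 72149572, plus strand). Gabra4 and Gabrb1 face away from each other, and their RefSeq bounds overlap by 388 bp. RefSeq lists 2 starts for Gabrb1. The first, at 71657921, lies inside Gabra4, and the second, at 71699932, lies 42.0 kb downstream of it.

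**Figure D1:**
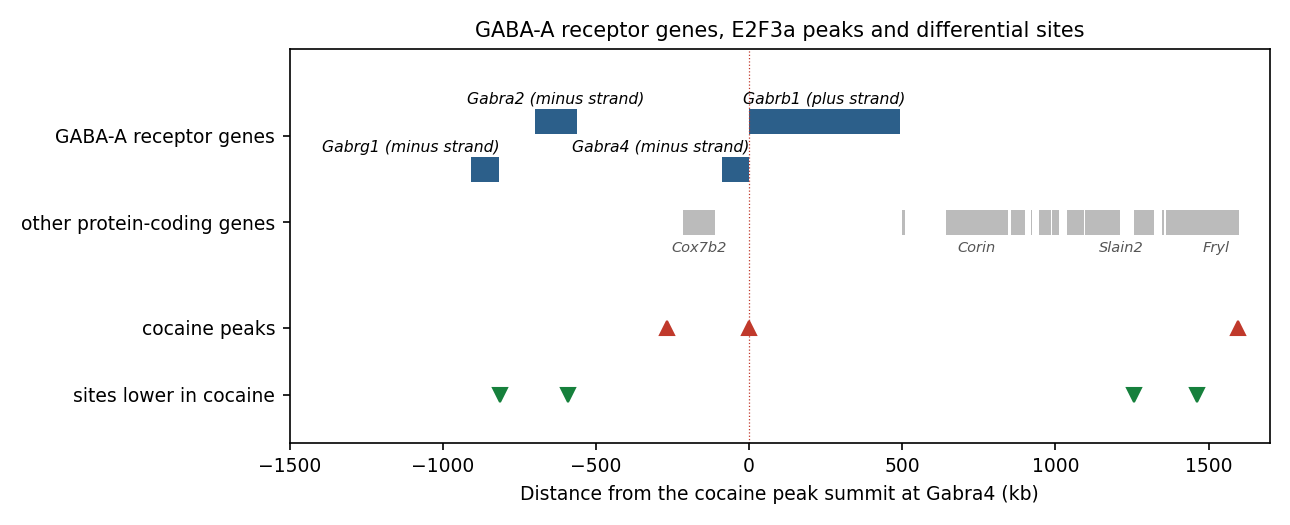
Map of the GABA-A receptor genes (blue) and the 12 other protein-coding genes within 1 Mb (grey), with cocaine peaks (red triangles) and sites lower in cocaine (green triangles). The horizontal axis is the distance in kb from the summit of the peak at Gabra4, and marker sizes are not to scale. The 2 sites assigned to the cluster lie at Gabrg1 and Gabra2, whereas the peak lies where Gabra4 and Gabrb1 meet.

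The cluster held 2 listed sites and 1 peak. E2F3a signal upstream of Gabrg1 and in an intron of Gabra2 was lower in every cocaine library than in any saline library, with saline means 2.98 and 3.98 times the cocaine means. The groups were apart in this way at 48.1% of all lower sites. The start of Gabra4 carried a peak after cocaine and none after saline, and the first start of Gabrb1 lay within 1 kb of its summit. No listed site lay at Gabra4 or Gabrb1, and no peak lay at Gabrg1 or Gabra2. Of all lower sites, 7.59% overlapped a cocaine peak, and the share that overlapped a saline peak is not given here.

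The sequences just upstream of the starts are shown because the peak lies on that of Gabra4, and because they set its base composition beside that of its neighbours. They are the RefSeq sequences of build GRCm38.p6, the assembly of mm10, for the 250 bases before each start, written 5′ to 3′ on the strand of the gene. In the Gabra4 sequence (chr5:71658309-71658558, minus strand) capitals mark the bases inside the cocaine peak. In those of Gabrg1 (chr5:70842618-70842867, minus strand), Gabra2 (chr5:71095850-71096099, minus strand) and the second start of Gabrb1 (chr5:71699682-71699931, plus strand) capitals mark CG dinucleotides. The bases before the first Gabrb1 start lie within Gabra4 and are not printed.
Gabra4: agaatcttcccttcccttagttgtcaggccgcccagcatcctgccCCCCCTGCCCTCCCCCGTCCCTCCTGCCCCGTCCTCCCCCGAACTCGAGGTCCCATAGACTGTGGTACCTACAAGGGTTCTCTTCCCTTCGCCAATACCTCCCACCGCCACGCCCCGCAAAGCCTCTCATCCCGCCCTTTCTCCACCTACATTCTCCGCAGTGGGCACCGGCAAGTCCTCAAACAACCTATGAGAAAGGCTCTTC
Gabrg1: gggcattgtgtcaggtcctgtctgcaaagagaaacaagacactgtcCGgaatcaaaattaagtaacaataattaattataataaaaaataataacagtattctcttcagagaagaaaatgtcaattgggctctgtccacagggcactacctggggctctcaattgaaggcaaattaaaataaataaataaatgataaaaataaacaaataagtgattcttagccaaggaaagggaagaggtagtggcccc
Gabra2: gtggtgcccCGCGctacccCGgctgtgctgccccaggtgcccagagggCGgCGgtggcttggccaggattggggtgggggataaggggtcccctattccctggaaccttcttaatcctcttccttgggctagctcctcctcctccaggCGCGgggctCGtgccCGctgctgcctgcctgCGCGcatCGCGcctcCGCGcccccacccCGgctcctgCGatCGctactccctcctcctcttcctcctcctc
Gabrb1 second start: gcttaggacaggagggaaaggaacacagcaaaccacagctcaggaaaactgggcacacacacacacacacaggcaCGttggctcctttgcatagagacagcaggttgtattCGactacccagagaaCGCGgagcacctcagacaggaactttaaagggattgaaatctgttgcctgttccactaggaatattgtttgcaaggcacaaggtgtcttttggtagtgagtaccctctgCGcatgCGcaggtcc

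Base composition differed widely among these windows. The Gabrg1 window was 35.6% G+C with 1 CG dinucleotide, and only 5.4% of the 32851 promoter windows in the RefSeq table had less G+C. The Gabra2 window was 70.0% G+C with 18 CG dinucleotides, and the Gabra4 window 61.2% with 12. The windows of the first and second Gabrb1 starts were 64.4% and 50.8% G+C. The CpG ratio, the observed number of CG dinucleotides over that expected from the C and G content, was 0.13 at Gabrg1, 0.61 at Gabra2, 0.65 at Gabra4, 0.71 at the first Gabrb1 start and 0.37 at the second. Over all windows the medians were 52.4% G+C and a ratio of 0.37, and over the 1010 windows that a cocaine peak overlapped they were 62.4% and 0.81. The Gabra4 window was thus near the latter in G+C and below it in CpG ratio. The E2F motif was searched on both strands as TTTCCCGC, TTTGGCGC, TTTCGCGC and TTTGCCGC. None of the 5 windows held a match, and 1.86% of all windows and 7.33% of those overlapped by a cocaine peak did. These letters are absent from these windows. The 99 bases of the peak that lie outside the Gabra4 window, its summit among them, were not searched. The listed sites of Gabrg1 and Gabra2 lie outside the windows and were not searched either.

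**Figure D2:**
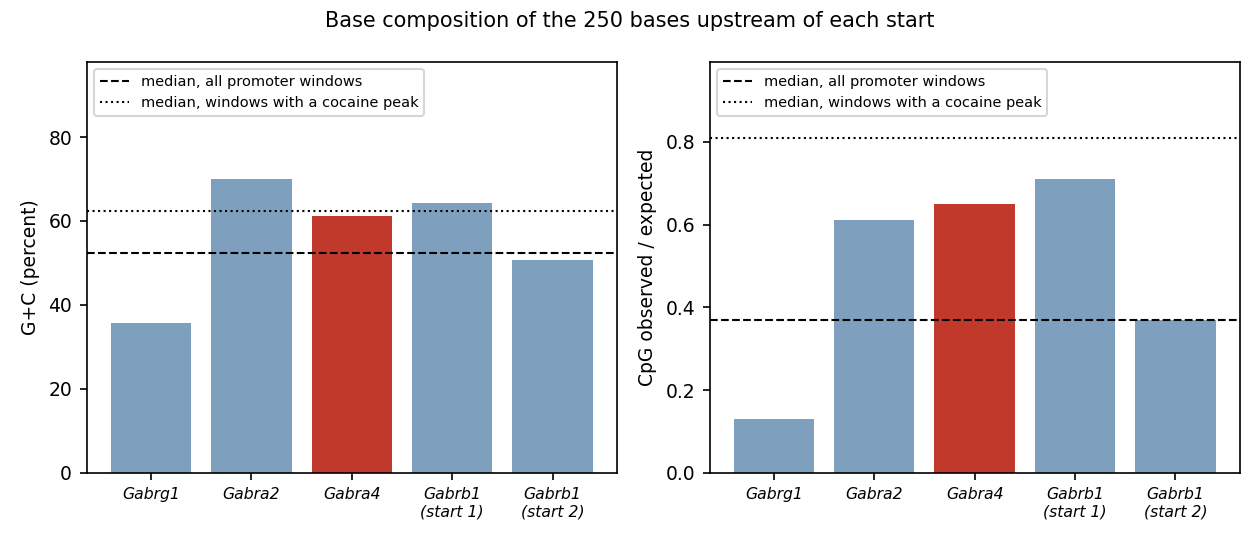
Percent G+C (left) and the CpG ratio (right) of the 250 bases upstream of each RefSeq start, with the Gabra4 window that the cocaine peak overlaps in red. Start 1 of Gabrb1 is the one inside Gabra4. The dashed and dotted lines are the medians of all promoter windows (52.4% and 0.37) and of windows with a cocaine peak (62.4% and 0.81), and Gabrg1 lies below both in each panel.

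The alpha4 and beta1 genes shared the peak. It ran from 71658210 to 71658513 (304 bp), and its summit at 71658304 lay 4 bp inside the Gabra4 start. Of its bases, 99 lay in Gabra4 and 205 upstream of it, and all 304 lay within the bounds of Gabrb1. The summit was 383 bp downstream of the first Gabrb1 start and 41.6 kb upstream of the second. The peak therefore lay at the Gabra4 promoter and within 1 kb of 1 of the 2 Gabrb1 starts, without reaching it. Of all cocaine peaks, 82 (2.37%) had a summit within 50 bp of a RefSeq start.

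The peak was somewhat below the median of its list by fold enrichment and among the weaker ones by q. Its fold enrichment, the authors' ratio of signal to the caller's background, was 4.50, against a median of 4.88 over the cocaine list and of 5.36 over the 82 peaks with a summit within 50 bp of a start. It ranked 2153 of 3467 by fold enrichment. Its −log10 q was 3.17, a q of 0.000677, and 12.3% of the list had a weaker q. It was lost when a −log10 q of at least 4 was asked for, a bound that 76.7% of cocaine peaks passed. No saline peak overlapped it, and of all cocaine peaks 15.7% overlapped one. The nearest saline peak to any of the 4 genes was 4627.1 kb from Gabrb1. The saline list was much the shorter, so a peak in 1 list only does not show a difference in occupancy.

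Both genes with the peak counted as occupied after cocaine, which made 2 of the 4 genes for 1 shared peak. Of all protein-coding genes, 9.79% had a cocaine peak within 1 kb and 1.85% a saline peak. The 4 genes are long, from 88.6 kb for Gabra4 to 491.7 kb for Gabrb1. Of the 2809 protein-coding genes at least as long as Gabra4, 20.4% had a cocaine peak and 3.88% a saline peak. The next cocaine peak lay between genes, 293.1 kb from Gabra2 and 180.5 kb from Gabra4 (71388931 to 71389198, 3.75-fold), so it was not counted. No other peak of either list lay between the ends of the cluster.

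The gamma1 gene had a listed site upstream of its start. The site (70843102 to 70844400) began 485 bp and ended 1783 bp upstream of the Gabrg1 start, and the authors annotated it as promoter. The normalized counts were 23.9, 18.44, 13.81 and 30.06 in saline 1 to 4. They were 8.34, 3.12, 10.06, 0, 13.28 and 8.55 in cocaine 1 to 6. The highest cocaine library, cocaine 5, lay 0.53 below the lowest saline library, saline 3, so the groups did not overlap but nearly met. The saline mean was 21.6 ± 7.01 (SD, n = 4) and the cocaine mean 7.22 ± 4.83 (SD, n = 6). The authors' deposited table gave a log2 fold change of -1.58 with an adjusted p of 0.000495. Within the site the strongest window, 70843402 to 70844400, had a log2 fold change of -1.87 in that table, a window that diffReps chose as the strongest.

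The alpha2 gene had a listed site deep inside it. The site (71064802 to 71065800) lay 30.0 kb downstream of the RefSeq start and, by the authors' annotation, in intron 3 of 9. The normalized counts were 16.29, 17.8, 9.21 and 22.55 in saline 1 to 4. They were 7.7, 5.2, 8.05, 3.89, 0 and 0 in cocaine 1 to 6. All 6 cocaine libraries lay below all 4 saline libraries, with a gap of 1.16 between cocaine 3 and saline 3. The saline mean was 16.5 ± 5.52 (SD, n = 4) and the cocaine mean 4.14 ± 3.56 (SD, n = 6). The authors' deposited table gave a log2 fold change of -1.99 with an adjusted p of 0.0018. Without cocaine 5 and 6 the cocaine mean was 6.21 ± 2.00 (SD, n = 4), and the log2 ratio was -1.41 at Gabra2 and -2.0 at Gabrg1.

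**Figure D3:**
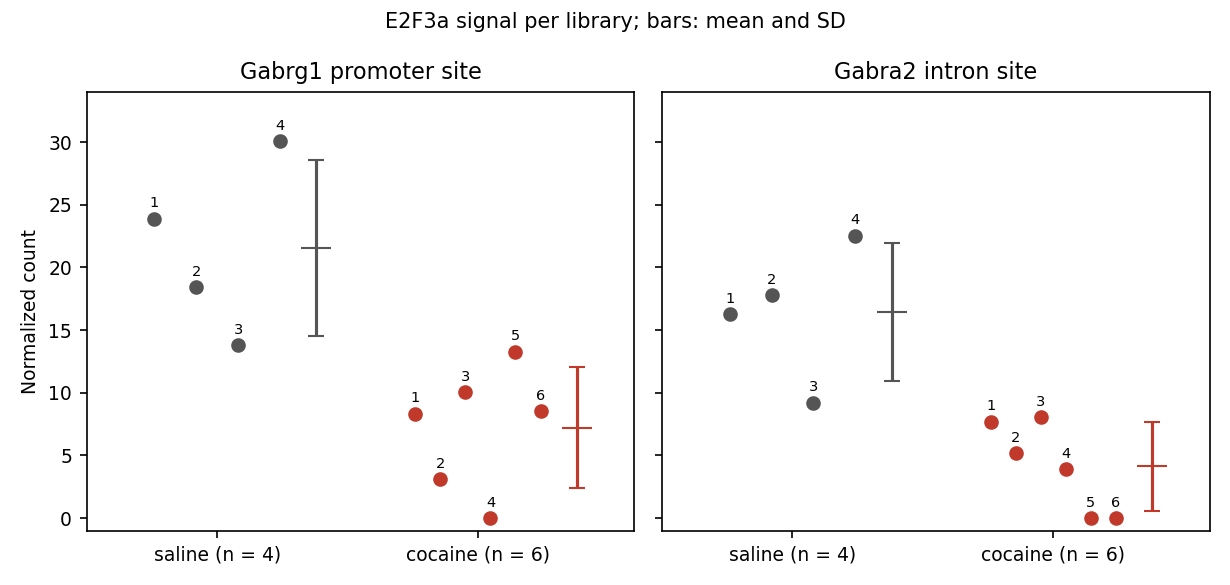
Normalized count (vertical axis) of every library at the Gabrg1 promoter site (left) and the Gabra2 intron site (right), with library numbers in the order of the deposited table. Horizontal marks and bars are the group mean and SD. The cocaine libraries reach 13.28 at Gabrg1 and 8.05 at Gabra2, and the lowest saline libraries lie at 13.81 and 9.21.

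These values rest on few reads. Within a library the normalized counts were whole multiples of the count worth 1 read, which ran from 0.64 (cocaine 1) to 2.21 (cocaine 5) in cocaine and from 0.38 (saline 3) to 1.88 (saline 4) in saline. The Gabrg1 site thus held 0 to 13 reads per cocaine library (37 in all) and 16 to 44 per saline library (125 in all). The Gabra2 site held 0 to 12 reads per cocaine library (28 in all) and 12 to 30 per saline library (94 in all). A count of 0 allows up to 3 reads. That is a normalized count of 3.89 for cocaine 4 at Gabrg1, and of 6.64 and 5.13 for cocaine 5 and 6 at Gabra2, each below the lowest saline value at that site. These limits cover counting error only. Saline 4, which had the fewest reads per unit of count among the saline libraries, was the highest library at both sites, and saline 3, which had the most, was the lowest of the 4 at both. Across the 474 lower sites saline 4 was the highest saline library at 58.6% and saline 3 the lowest at 34.6%, and the part of depth in the result was not tested.

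The 2 sites were selected by the authors on these libraries, and the genes were chosen with that in view, so the following places them in the table and tests nothing. An adjusted p below 0.05 was held by 947 of the 956 sites in the authors' deposited table (99.1%), of which 474 were lower. Of the 4 genes, 2 were named at a lower site and 0 at a higher one. Of all protein-coding genes 1.8% were named at a lower site and 1.01% at a higher one, and of those at least as long as Gabra4 4.91% and 2.78%.

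By normalized count, both falls were larger than that of the median lower site. The median log2 fold change of lower sites was -1.13. By that measure Gabra2 ranked 8 and Gabrg1 49 of 474, and by adjusted p they ranked 566 and 295 of the 956 sites. The rank of Gabra2 includes counts of 0 in both cocaine 5 and cocaine 6, a pattern held by 3 of the 474 lower sites (0.63%). Without these libraries its log2 ratio was -1.41, beside a lower quartile of -1.37 over lower sites with all libraries. The cocaine mean was above that of Gabra2 at 97.3% of lower sites and above that of Gabrg1 at 76.4%. The saline mean was below that of Gabra2 at 13.3% and below that of Gabrg1 at 36.9%. The authors' enrichment, a ratio over a background not given in the sources used here, was also lower in cocaine, at 1.03 against 2.32 in saline at Gabrg1 and 1.5 against 2.79 at Gabra2. The medians over lower sites were 1.13 in cocaine and 2.58 in saline. By this measure the drop at neither site exceeded that between the medians. The saline value was above the median at Gabra2 and below it at Gabrg1. Neither site overlapped a peak. The sites were 220.4 kb apart.

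**Figure D4:**
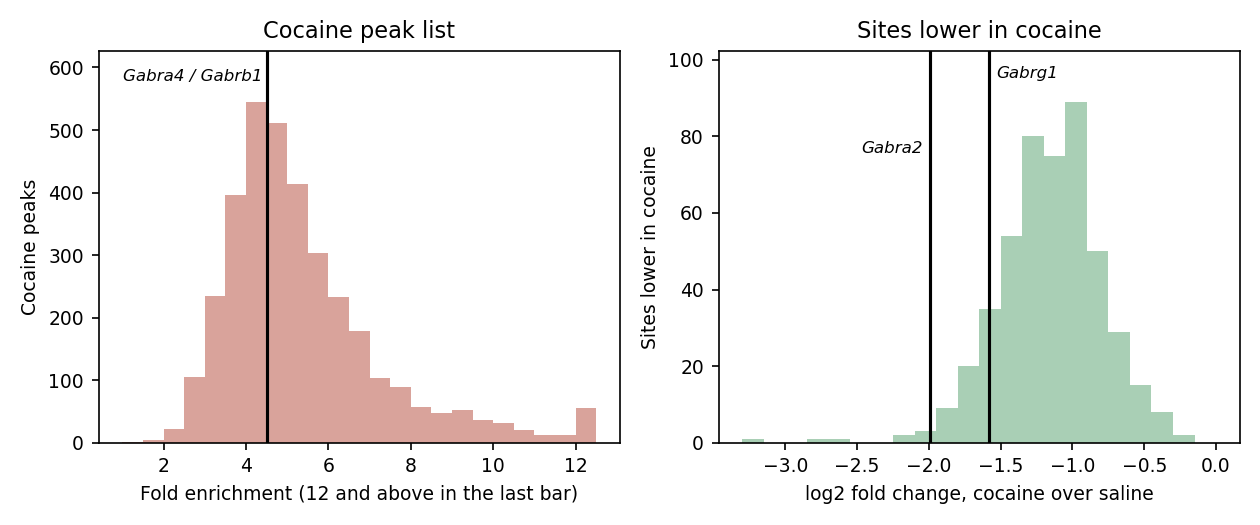
Left, the number of cocaine peaks by fold enrichment, with a line at 4.50 for the peak at Gabra4 and Gabrb1, just below the list's median of 4.88. Right, the number of lower sites by the log2 fold change of the authors' deposited table, with lines at -1.99 for Gabra2 and -1.58 for Gabrg1, both left of the median of -1.13.

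Of the 12 other protein-coding genes within 1 Mb of the cluster, 2 were named at a lower site and 0 at a higher site, beside 1.8% and 1.01% of all protein-coding genes. A cocaine peak was found at 1 of them and a saline peak at 0, beside 9.79% and 1.85%. These shares were not tested. Slain2, which encodes a microtubule-associated protein, had a lower promoter site (72913602 to 72914600, 11.9 ± 4.68 in cocaine, n = 6, and 29.2 ± 8.17 in saline, n = 4, SD). Fryl had a lower site (73120202 to 73121300, 10.7 ± 2.16 and 23.8 ± 14.4 likewise) at which the groups overlapped. The authors annotated it as promoter from a transcript that starts inside the gene, and it lay within the RefSeq bounds of Fryl, 100.0 kb from the nearer end. The Fryl cocaine peak of 5.02-fold (73256081 to 73256348) was 134.8 kb from that site. Their log2 fold changes in the authors' deposited table were -1.29 and -1.15, smaller falls than at Gabrg1 and Gabra2. The genes between Gabra2 and Slain2, other than Gabra4 and Gabrb1, had neither a peak nor a site.

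Peaks and sites at the other GABA-A receptor subunit genes came to 1 peak. Of 15 such genes none was named at a listed site, beside 1.8% of all protein-coding genes at a lower site and 1.01% at a higher one. A cocaine peak lay at 1 of the 15, beside 9.79% of all protein-coding genes. This was Gabrg3, which encodes the gamma3 subunit. Its peak (chromosome 7, 57373641 to 57374216, 4.67-fold) was 13.2 kb from the nearest start, unlike that of Gabra4. None of the 15 had a saline peak within 1 kb, beside 1.85% of all protein-coding genes. These shares were not tested.

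Outside the receptor subunits, most of the peaks in the GABA lists lay at genes of the inhibitory postsynapse. Of 15 genes of that list 6 had a cocaine peak and 1 a saline peak. Of 9 genes of GABA synthesis, transport and breakdown 0 had either. The shares of all protein-coding genes were 9.79% and 1.85%. These shares were not tested or matched for gene length, and the lists were chosen with earlier results of these data known. Of the GABA-B receptor genes, 1 of 2 had a cocaine peak, Gabbr1 (4.61-fold). Gphn, which encodes the scaffold gephyrin, had a 7.53-fold peak with its summit 182 bp from a start. Slc12a5, which encodes the neuronal chloride exporter KCC2, had a peak of 7.39-fold inside the gene. Nlgn2, which encodes an adhesion protein of inhibitory synapses, had the only peak of these lists present after both treatments, at 5.32-fold in the cocaine list and 2.71-fold in the saline list. Gabarap and Clptm1, which act in receptor trafficking, had peaks with summits 57 bp and 230 bp from a start (4.07-fold and 4.53-fold), and Trak1 had a peak of 6.18-fold inside the gene. None of the 41 genes of the GABA lists was named at a listed site, beside 1.8% of all protein-coding genes at a lower site.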

How the data were processed

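CUT&RUN libraries of E2F3a were analysed from the processed files, and the build is mm10 per the submitters' processing notes. The authors deposited MACS peak lists, per the file headers and names, with a fold enrichment ratio, the −log10 of p and q, a score equal to 10 times the −log10 q rounded down and not used here, and a summit. They also deposited a diffReps table (negative binomial, per its name) with normalized counts, mean signal, enrichment ratio, log2 fold change, p-value and adjusted p. The aligner, caller settings, versions and use of IgG were not given in the sources used here. For 2 IgG libraries the title and treatment label disagree, and they were left unassigned.

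Peaks were assigned to RefSeq gene bounds (GRCm38.p6) within 1 kb, and sites by the gene symbol of the table. Overlap needed 1 bp. The normalized count worth 1 read was found per library from values up to 20 reads, and 100.0% of them came out whole within 0.1 step, a procedure tested on simulated data. The table gives no total depth. Over the 956 listed sites cocaine libraries held 46536 to 102631 reads and saline libraries 41437 to 153637. Whether libraries came from separate animals is not labelled, so the SD may be technical. The genes and the 4 gene lists were chosen with earlier results of these data known, so no test was run. All peaks and sites of the 4 genes are named, as is every gene of the lists and every neighbour with a peak or site. Distances from peaks to some other genes are not reported here. Python 3.11.15, pandas 2.3.3 and numpy 2.4.6 were used.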

Additional observations from a re-analysis of the deposited data

How the results depend on the processing

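The log2 ratio of group means was negative at both sites under every alternative run. Every cocaine library lay below every saline library there, so its sign could not change and only its size could. Leaving out each library in turn gave -1.84 to -1.31 at Gabrg1 and -2.29 to -1.73 at Gabra2. With log2(normalized count + 1) it was -1.80 and -2.19, with group medians -1.23 and -1.70. The count of lower sites at the 4 genes was 2 at an adjusted p below 0.01, at a log2 fold change of -1 or less, and with sites assigned within 1 kb. The cocaine peak was found at 0 bp and 5 kb, and 0 peaks were left at a −log10 q of at least 4. The share of protein-coding genes with a cocaine peak rose from 9.79% to 20.4%, and that named at a lower site from 1.8% to 4.91%, in genes at least as long as Gabra4, a comparison chosen after seeing the data. With the E2F motifs shortened by their first T, each of the 5 windows still had 0 matches. A match was held by 7.89% of all windows and by 22.5% of those overlapped by a cocaine peak. No paired analysis was possible because the library values carry no replicate numbers. At 0 to 13 reads per cocaine library, counting error limits each value.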
